A study of Neocallimastix californiae and Anaeromyces robustus with 43 samples.

Results

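The transcripts described here are those of the anaerobic gut fungus Anaeromyces robustus that stood high on glucose and on maltose and lower on every other carbon source tested. They were chosen from the deposited TPM values (transcripts per 1000000, a level corrected for transcript length). For each transcript the median TPM over the libraries of each carbon source was taken. H is the lower of the glucose and maltose medians, and L is the highest of the medians on cellobiose, Avicel, reed canary grass, switchgrass and corn stover. A transcript was kept if H was at least 5 TPM and the score, log2((H + 1)/(L + 1)), was at least 1. This gave 25 of 17127 transcripts, from 23 of 16038 loci, out of 2014 transcripts with an H of at least 5 TPM. Since the TPM values of all 7 carbon sources chose them, the difference between glucose or maltose and the rest is a description and has no test.

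The study measured polyadenylated RNA in cultures of 1 fungal strain, labelled S4, given 1 energy substrate each. Glucose, maltose and cellobiose are soluble sugars, Avicel is purified cellulose, and reed canary grass, switchgrass and corn stover are plant materials (together called the grasses). Below, the sugar libraries are those of glucose and maltose only, without cellobiose. Each substrate had 3 libraries, except corn stover with 2. All groups shared the same growth conditions per the labels' protocols: about 10 ml of Medium C at 39 °C, harvested in mid-logarithmic growth at a gas pressure of at least 5 psi.

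Anaerobic gut fungi inhabit the gut of large herbivores, lack mitochondria and ferment sugars that they release from plant cell walls. Glucose enters glycolysis directly, and maltose is a disaccharide of glucose with the alpha linkage found in starch. Cellobiose is also a disaccharide of glucose, but with the beta linkage of cellulose, so it is the soluble unit of Avicel and of the cellulose in grasses. The files do not pair transcript identifiers with gene names, and no function is stated for any transcript below.

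Library totals ran from 1946186 to 31742828 expected counts, the estimates of read number that RSEM gives. The smallest total was that of maltose replicate 3, where the single transcript Locus13069v1rpkm0.51 took 42.5% of the counts and stood at 544644 TPM. In each of the other 19 libraries the most abundant transcript took between 1.97% and 3.71%. TPM sums to the same total in every library, so this transcript alone lowers the others there by 1.13 on the log2 scale, and the drop described below was larger. With the most abundant transcript of each library taken out of TPM, the rule gave 30 transcripts, the 25 among them. What else lowers the TPM of maltose replicate 3 was not tested. The TMM scaling factors, which edgeR computes to make libraries comparable, were 0.178 for maltose replicate 3, 0.273 for Avicel replicate 1 and between 0.524 and 1.97 for the rest. Results below that depend on these libraries or on the scaling are given both ways.

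The 25 transcripts covered a wide range of levels. H ran from 5.37 to 961.65 TPM with a median of 23.95 TPM, was at least 100 TPM in 5 transcripts and was under 10 TPM in 8. L ran from 0.72 to 413.07 TPM with a median of 4.62 TPM. The ratio of H to L lay between 2.07 and 15.7 with a median of 3.83, and it was at least 4 in 9 transcripts and at least 10 in 4. No transcript had a median of 0 TPM on all 5 other carbon sources, and L was under 1 TPM in only 4, so the set is better described as higher on glucose and maltose than as restricted to them. In 11 transcripts L was at least 10 TPM.

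**Figure D1:**
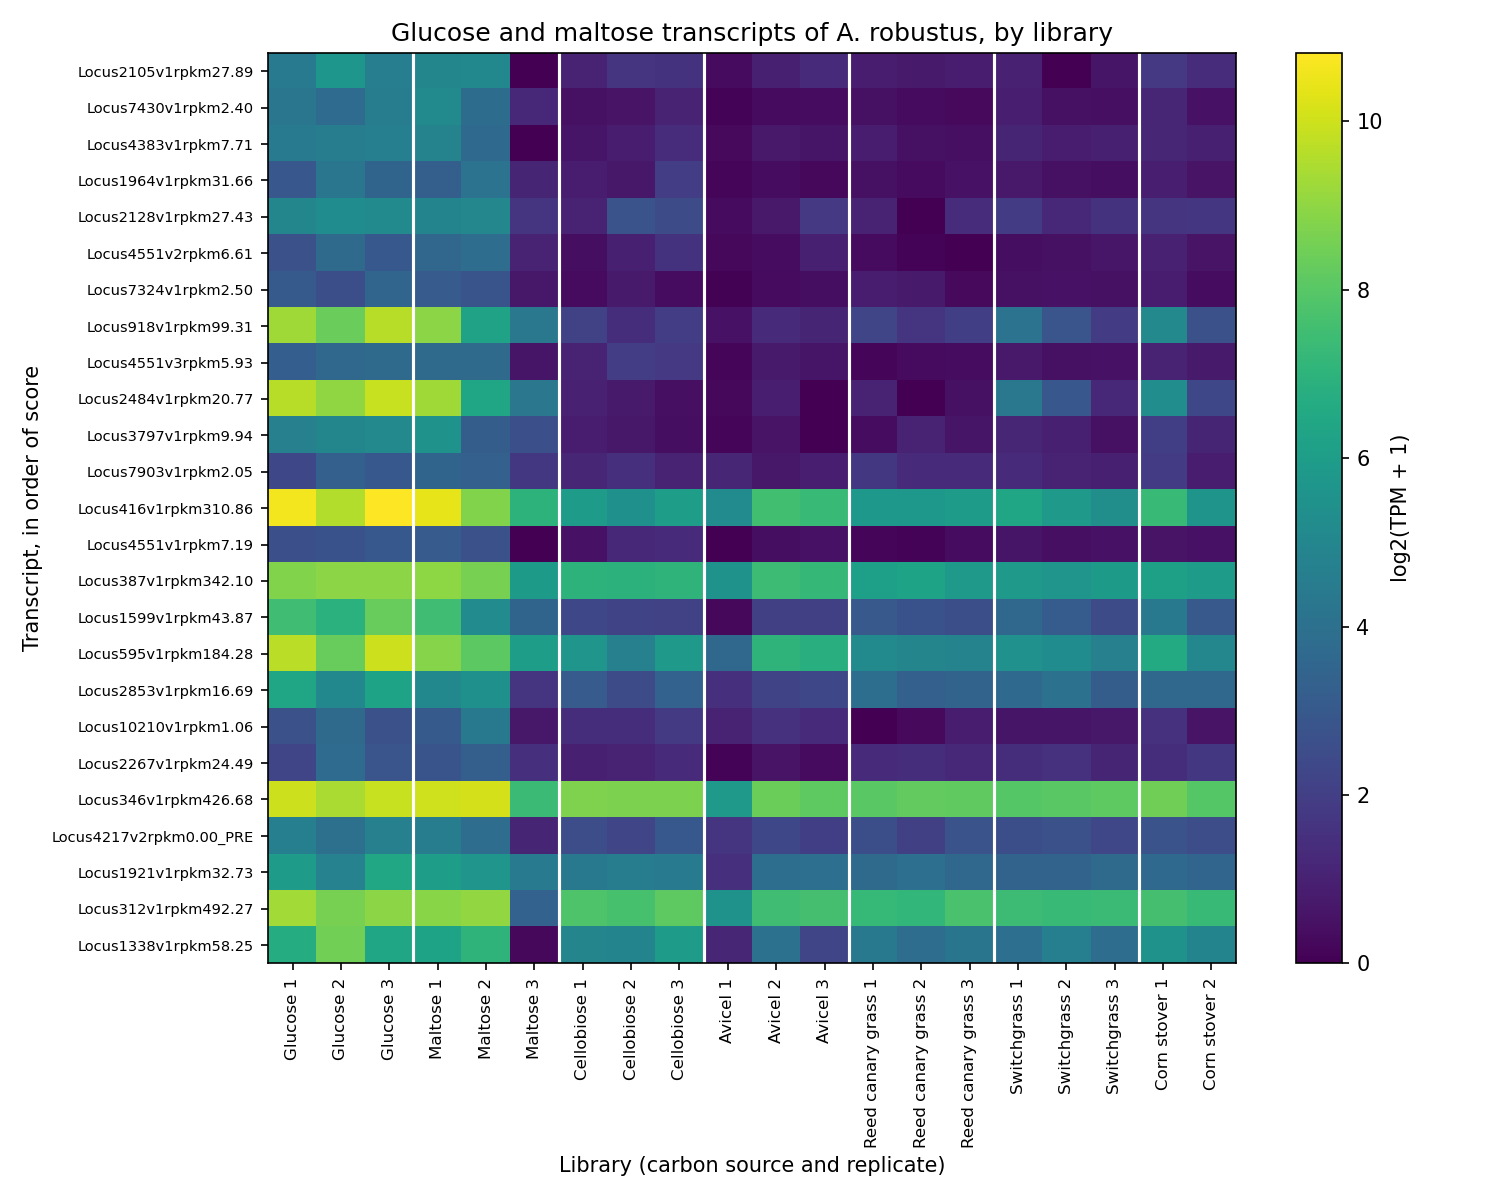
Level of each of the 25 transcripts (rows, highest score at the top) in each of the 20 libraries (columns, white lines between carbon sources), as log2(TPM + 1). The glucose libraries and maltose replicates 1 and 2 are brighter than the 14 libraries of the other carbon sources in every row, while maltose replicate 3 is dim.

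The score ran from 1.03 to 3.04 with a median of 1.44. The lowest transcript inside the set was Locus1338v1rpkm58.25, with an H of 75.51 TPM and an L of 36.47 TPM. The next one outside, Locus241v1rpkm751.19, had an H of 1107.7 TPM and an L of 566.99 TPM, for a score of 0.96. By level, Locus4551v1rpkm7.19 lay just inside at an H of 5.37 TPM, and Locus6875v1rpkm2.91 just outside at 4.98 TPM. Single maltose libraries moved the size of the set, which was 13 without maltose replicate 1 and 50 without maltose replicate 3.

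The 4 transcripts with the highest scores were those with an H of at least 10 times L, and they were low on all 5 other carbon sources. Locus2105v1rpkm27.89, the highest, stood at 20.67, 49.6 and 23.95 TPM on glucose and at 30.49, 32.3 and 0 TPM in maltose replicates 1, 2 and 3. In the 14 libraries of the other 5 carbon sources it lay between 0 and 2.5 TPM with a median of 0.96 TPM. All sugar libraries but maltose replicate 3 were therefore above all others. Locus7430v1rpkm2.40 stood at 17.75, 12.92 and 22.9 TPM on glucose and at 33.67, 13.02 and 1.37 TPM on maltose, against 0.07 to 1.21 TPM elsewhere (median 0.38 TPM). It was 1 of 2 transcripts of the set in which even maltose replicate 3 lay above all 14 other libraries on the TPM scale. Locus4383v1rpkm7.71 stood at 20.61, 22.73 and 24.42 TPM on glucose and at 27.83, 12.09 and 0 TPM on maltose, against 0.22 to 1.59 TPM elsewhere (median 0.77 TPM). Locus1964v1rpkm31.66 was lower, at 6.66, 18.16 and 10.3 TPM on glucose and 8.68, 16.57 and 1.15 TPM on maltose, against 0.12 to 2.85 TPM elsewhere (median 0.43 TPM). Its highest value outside glucose and maltose came from cellobiose replicate 3, which was below each sugar library except maltose replicate 3.

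Locus2128v1rpkm27.43 stood at 30.09, 37.31 and 34.51 TPM on glucose and 28.21, 31.1 and 2.11 TPM on maltose, against 0 to 5.83 TPM elsewhere (median 1.82 TPM). Its 3 glucose libraries and the first 2 maltose libraries lay close together. Locus7324v1rpkm2.50 stood at 7.47, 5.09 and 10.54 TPM on glucose and 7.51, 5.91 and 0.64 TPM on maltose, against 0.03 to 0.8 TPM elsewhere (median 0.35 TPM). It had the lowest ceiling of the set, with an L of 0.72 TPM on reed canary grass.

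Locus4551 gave 3 of the 25 transcripts, versions 2 and 3 among the 10 highest scores and version 1 at a score of 1.41. Versions of 1 locus share reads, so these are not independent. Locus4551v2rpkm6.61 stood at 5.4, 12.38 and 6.93 TPM on glucose and 10.76, 13.45 and 1.03 TPM on maltose. Locus4551v3rpkm5.93 stood at 8.32, 11.71 and 12.46 TPM on glucose and 12.38, 12.2 and 0.53 TPM on maltose. Locus4551v1rpkm7.19 stood at 5.27, 5.66 and 6.89 TPM on glucose and 7.58, 5.37 and 0 TPM on maltose. On TPM all 3 versions peaked outside these sugars on cellobiose, with medians of 0.96, 2.43 and 1.39 TPM for versions 2, 3 and 1. By mean CPM versions 3 and 1 were still highest on cellobiose. Version 2 was then higher on Avicel, at 0.79 ± 0.43 against 0.61 ± 0.41 on cellobiose (SD, n = 3 each). On TPM maltose replicate 3 alone among the sugar libraries fell within the range of the other libraries. On CPM it stood at 13.9 and 6.99 in versions 2 and 3, against at most 1.22 and 2.07 in the other libraries. In version 1 it was at 0. The locus has 2 further versions, Locus4551v4rpkm5.58 and Locus4551v5rpkm1.58, whose H was 0.33 and 0.1 TPM.

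Locus2484v1rpkm20.77 and Locus918v1rpkm99.31 were high on glucose, uneven on maltose and, away from those sugars, highest on corn stover. Locus2484v1rpkm20.77 stood at 803.35, 511.88 and 963.92 TPM on glucose and at 613.04, 80.95 and 18.75 TPM on maltose. On corn stover it stood at 38.2 and 4.09 TPM, on switchgrass at 19.23, 6.63 and 1.4 TPM, and in the 9 libraries of cellobiose, Avicel and reed canary grass at 1.14 TPM or less. Maltose replicate 1 thus lay among the glucose libraries, while on TPM maltose replicate 3 lay below corn stover replicate 1. On CPM maltose replicate 3 stood at 60.9 and corn stover replicate 1 at 6.09. Locus918v1rpkm99.31 stood at 608.24, 319.07 and 812.14 TPM on glucose, at 493.56, 74.42 and 19.07 TPM on maltose, at 32.8 and 5.4 TPM on corn stover and at 16.38, 6.27 and 2.73 TPM on switchgrass. The order of the libraries within maltose, switchgrass and corn stover was the same for both transcripts. In the 9 libraries where each had at least 15 expected counts, the TPM of Locus918v1rpkm99.31 was between 0.623 and 1.02 times that of Locus2484v1rpkm20.77, while its own level ran from 6.27 to 812.14 TPM. This cut drops the libraries where Locus2484v1rpkm20.77 was low. In each of those Locus918v1rpkm99.31 was the higher, at 2.88 against 0.37 TPM in cellobiose replicate 3 and 5.4 against 4.09 TPM in corn stover replicate 2. The near-constant ratio therefore holds only where both were well counted. These values were set side by side after they had been seen, and the same rule chose both transcripts.

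A large ratio between replicates was common in the set. The TPM of maltose replicate 1 was over 3 times that of maltose replicate 2 in 5 transcripts. These were Locus2484v1rpkm20.77 (7.57 times), Locus918v1rpkm99.31 (6.63 times), Locus3797v1rpkm9.94 (5.36 times), Locus1599v1rpkm43.87 (4.91 times) and Locus416v1rpkm310.86 (3.12 times). In the same 5 transcripts corn stover replicate 1 was above replicate 2 by 9.34, 6.07, 2.63, 2.77 and 3.27 times. A corn stover ratio over 3 was found in 6 transcripts, of which Locus10210v1rpkm1.06 (3.82 times), Locus7903v1rpkm2.05 (3.29 times) and Locus595v1rpkm184.28 (3.16 times) had maltose ratios of 0.374, 1.13 and 1.66. Among the transcripts with an H of at least 5 TPM and counts in both libraries, 1.34% of 2013 had a maltose ratio over 3 and 1.14% of 2011 had a corn stover ratio over 3. The members' own shares are a description, since the maltose values entered the rule and the transcripts were singled out after their values were seen. No label separates these replicates beyond their number.

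**Figure D2:**
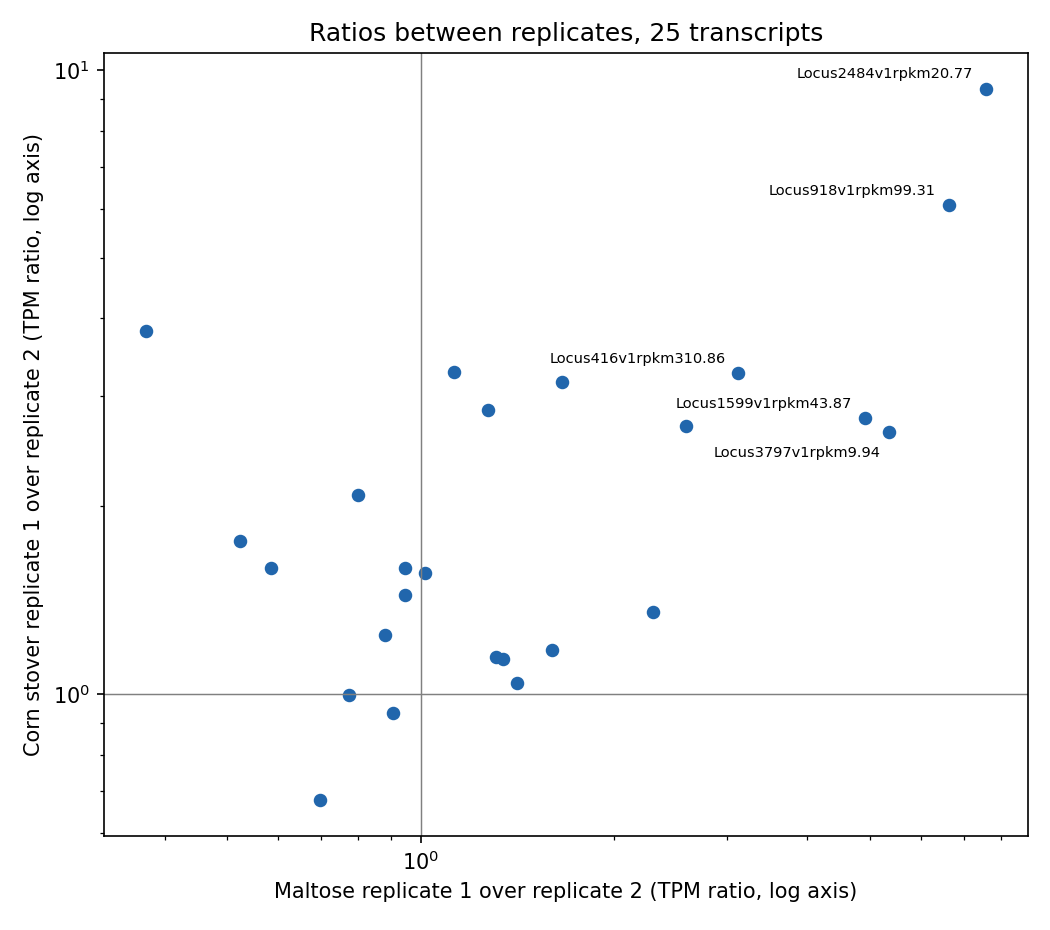
TPM ratio of maltose replicate 1 to replicate 2 (horizontal, log axis) against the ratio of corn stover replicate 1 to replicate 2 (vertical, log axis) for the 25 transcripts, with grey lines at equal levels. The 5 named points are those with a maltose ratio over 3, up to 7.57, and all 5 lie above 2.6 on the corn stover axis. On that axis 22 of the 25 transcripts lie above 1, with a median of 1.59. Over the 2011 transcripts with an H of at least 5 TPM and counts in both libraries the median was 0.958.

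Locus3797v1rpkm9.94 and Locus1599v1rpkm43.87, also among the 5 with a maltose ratio over 3, stood at lower levels. Locus3797v1rpkm9.94 stood at 24.88, 30.48 and 33.26 TPM on glucose and 44.18, 8.25 and 5.22 TPM on maltose, and it was the other transcript whose maltose replicate 3 stayed above all 14 other libraries (0 to 3.05 TPM, median 0.575 TPM). Locus1599v1rpkm43.87 stood at 177.61, 117.63 and 316.64 TPM on glucose and 178.31, 36.31 and 10.28 TPM on maltose, against 0.18 to 19.77 TPM elsewhere (median 4.82 TPM). In the latter, corn stover replicate 1 exceeded maltose replicate 3 on TPM, but on CPM it stood at 68.0 against 621 in maltose replicate 3.

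The 5 transcripts with an H of at least 100 TPM kept a substantial level on every carbon source. Locus346v1rpkm426.68 had the highest H and stood at 1001.33, 684.96 and 961.65 TPM on glucose and 1039.43, 1101.24 and 162.49 TPM on maltose. On cellobiose it stood at 421.44, 412.47 and 413.07 TPM and on the other 4 carbon sources between 56.04 and 356.19 TPM. On TPM the 5 sugar libraries other than maltose replicate 3 were therefore all above the rest. On CPM maltose replicate 3 stood at 2913, against at most 555 in the libraries of the other carbon sources. Locus312v1rpkm492.27 stood at 634.6, 387.85 and 482.33 TPM on glucose and 473.32, 537.56 and 9.54 TPM on maltose, against 44.61 to 278.45 TPM elsewhere (median 172 TPM). Here, on TPM, maltose replicate 3 was below every other library, Avicel replicate 1 included. On CPM it stood at 23.9, within the 11.5 to 42.2 CPM of the other carbon sources.

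Locus416v1rpkm310.86 stood at 1593.07, 759.38 and 1797.73 TPM on glucose and 1355.34, 434.13 and 127.16 TPM on maltose. Outside these sugars it was highest on Avicel, at 36.52, 184.37 and 159 TPM, with 153.61 TPM in corn stover replicate 1 and at most 82.26 TPM in the other 10 libraries. On TPM Avicel replicate 1 was the lowest of all 20 libraries, but on CPM it stood at 99.7, above corn stover replicate 1 at 64.7. Locus595v1rpkm184.28 followed the same order of levels, at 821.87, 314.52 and 1012.31 TPM on glucose, 456.33, 274.68 and 63.07 TPM on maltose and 11.62, 128.39 and 107.79 TPM on Avicel. Over the 20 libraries the TPM of Locus416v1rpkm310.86 was between 1.15 and 3.14 times that of Locus595v1rpkm184.28, with a median of 1.62 times. The SD of their log2(TPM + 1) difference, 0.37, was the third smallest of the 300 pairs of the set, whose median was 0.98. Locus387v1rpkm342.10 was even between the glucose replicates, at 434.95, 488.58 and 488.09 TPM on glucose and 500.73, 381.96 and 58.83 TPM on maltose. It stood at 125.33, 122.75 and 129.61 TPM on cellobiose, 44.52, 169.41 and 146.94 TPM on Avicel and 48.59 to 75.47 TPM on the grasses.

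**Figure D3:**
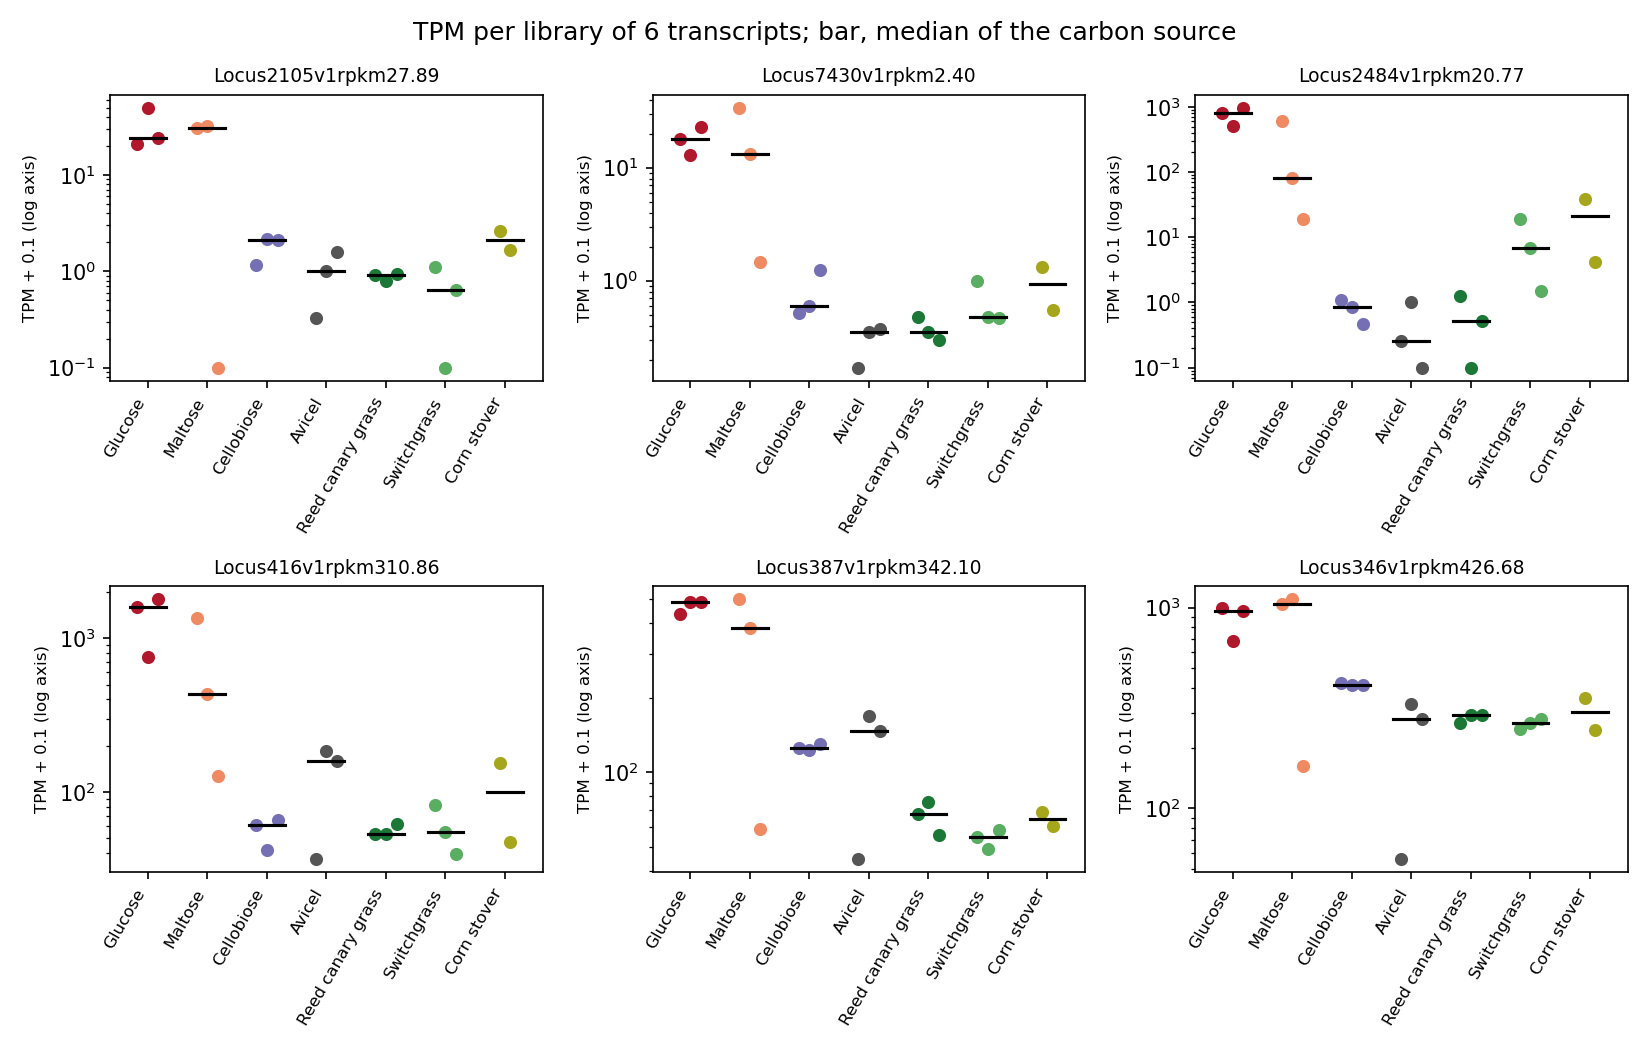
TPM + 0.1 (log axis) of 6 of the transcripts in every library, with 1 point per library and a bar at the median of each carbon source. Glucose and maltose medians are the highest in each panel, and the lowest maltose point in each is replicate 3, which in Locus2105v1rpkm27.89 is at 0 TPM.

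The other 7 transcripts had scores under 1.6. Locus2853v1rpkm16.69 stood at 84.16, 32.37 and 75.33 TPM on glucose and 32.22, 41.72 and 2.11 TPM on maltose, against 1.73 to 15.14 TPM elsewhere. By median TPM it was the 1 transcript highest on switchgrass among the 5 other carbon sources. On CPM its maltose replicate 3 stood at 35.9, against at most 10.8 elsewhere. Locus1921v1rpkm32.73 stood at 62.42, 26.83 and 87.1 TPM on glucose and 66.43, 49.4 and 21.01 TPM on maltose, against 1.78 to 21.98 TPM elsewhere. On CPM its maltose replicate 3 was the highest library, at 1368, against at most 90.2 outside glucose and maltose. Locus1338v1rpkm58.25 varied widely within glucose, at 102.7, 369.04 and 80.94 TPM, and stood at 75.51, 129.18 and 0.16 TPM on maltose against 1.23 to 60.86 TPM elsewhere. In the last of these, cellobiose replicate 3 was the highest of the 14 other libraries on TPM. On CPM corn stover replicate 1 was higher, at 45.5 against 41.2. Locus7903v1rpkm2.05, Locus10210v1rpkm1.06 and Locus2267v1rpkm24.49 were low throughout, with an H of 6.96, 5.4 and 6.11 TPM and at most 2.63, 2.62 and 2.41 TPM outside glucose and maltose. Locus4217v2rpkm0.00_PRE had an H of 13.73 TPM and an L of 5.35 TPM, with 2.13 to 6.86 TPM in the 14 other libraries.

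The highest of the 5 other carbon sources was corn stover in 11 transcripts, cellobiose in 9, Avicel in 3, reed canary grass in 1 and switchgrass in 1. The lowest was Avicel in 13, reed canary grass in 8 and switchgrass in 4. These are medians of TPM, and the tallies turned with the scale. By median TMM-scaled counts per 1000000 (CPM), the highest was corn stover in 11, Avicel in 10, cellobiose in 3 and reed canary grass in 1, and the lowest was switchgrass in 10, reed canary grass in 8, cellobiose in 5 and Avicel in 2. Between the sugars, maltose had the lower median TPM in 19 transcripts and glucose in 6, while on TMM-scaled CPM maltose was the lower in 6 and glucose in 19. The glucose median TPM was over 2 times the maltose median in 7 transcripts and the reverse held in none. On CPM these counts were 2 and 6. Since maltose replicate 3 was the lowest maltose library in all 25 on TPM, the maltose median was the lower of replicates 1 and 2.

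Maltose replicate 3 was below the other 5 glucose and maltose libraries in all 25 transcripts on the TPM scale, and at or below the highest of the 14 other libraries in 23. The summed TPM of the set was 511 there, against 3343 to 7308 in the other sugar libraries and 205 to 1073 in the 14 others. On TMM-scaled CPM it was below the other sugar libraries in 8 transcripts and at or below the highest of the others in 5. The median log2 ratio of maltose replicate 3 to the mean of replicates 1 and 2 was -3.11 for the set and -3.31 for all 2014 transcripts with an H of at least 5 TPM, both on TPM + 1. On TMM-scaled CPM + 1 it was -0.70 and -1.33. Locus2105v1rpkm27.89, Locus4383v1rpkm7.71 and Locus4551v1rpkm7.19 had no counts in this library, where 3 counts would amount to 8.96 CPM. Locus1338v1rpkm58.25 stood at 2.99 CPM there, against 140 to 595.1 CPM in the other 5 sugar libraries.

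All 6 sugar libraries were above all 14 others in 2 of the 25 transcripts on TPM, and this held for 0.0291% of the 10316 transcripts tested. On TMM-scaled CPM the count was 18 of 25, beside 1.1% of all. Without maltose replicate 3 it was 25 on TPM, beside 1.07% of all, and 23 on CPM, beside 3.94% of all. Nothing is read from these counts, because the same values chose the set. In the fit across all transcripts the log2 fold change of glucose and maltose over the mean of the other 5 ran from 2.22 to 8.93 with a median of 4.95, and without TMM, by library size alone, from 1.33 to 7.92 with a median of 3.88. All 25 were higher, as the rule requires, where 18.8% of all transcripts tested were called higher by edgeR.

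**Figure D4:**
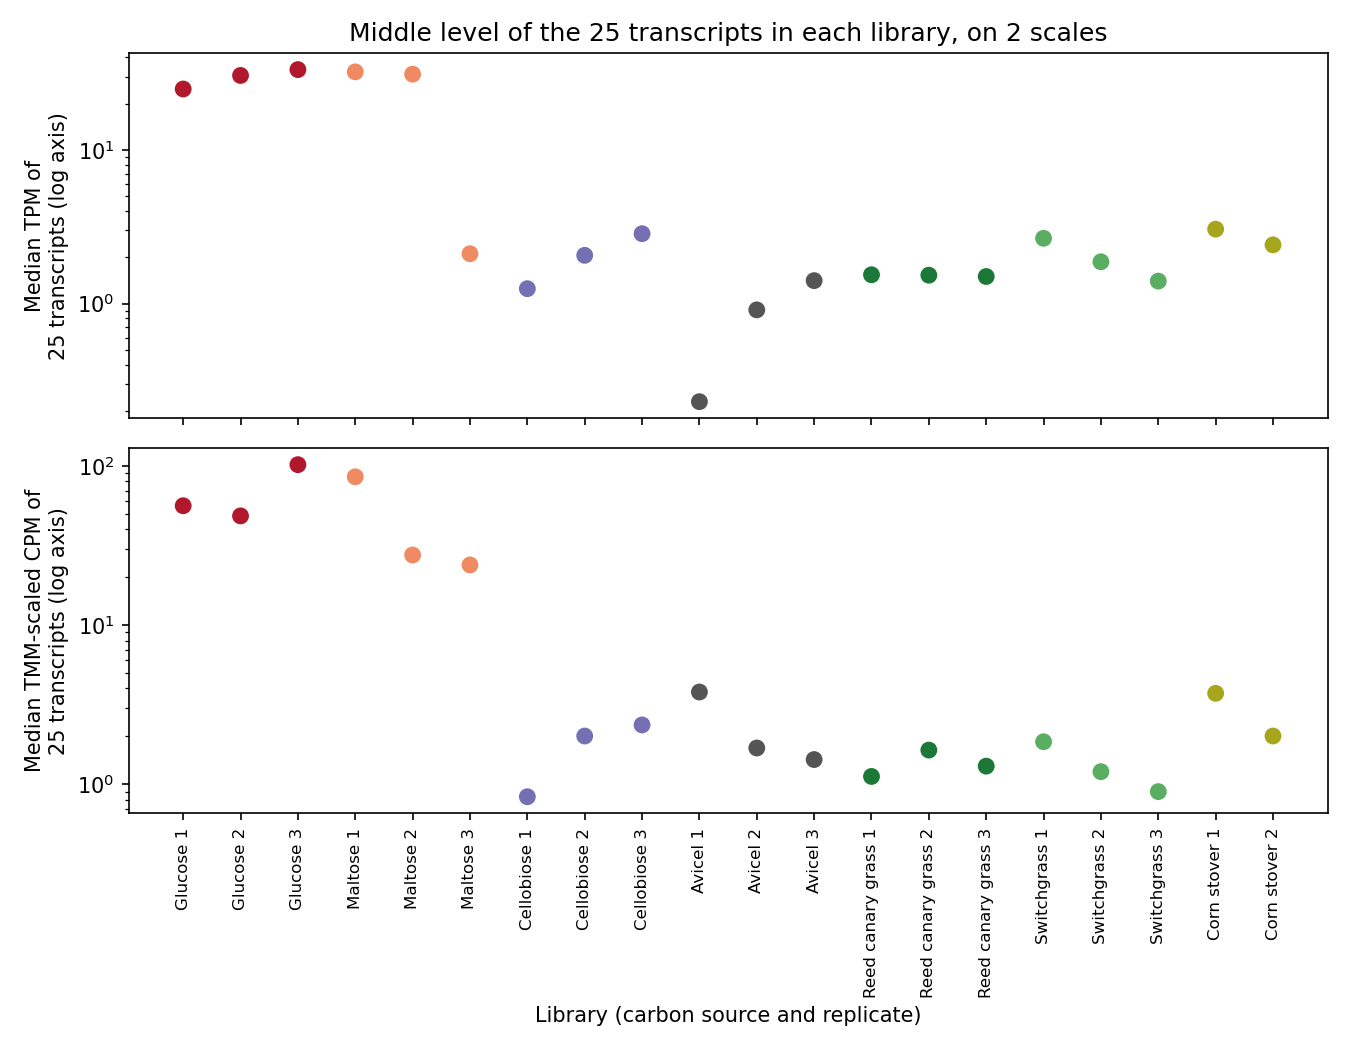
Median over the 25 transcripts in each library, on TPM (upper panel) and on TMM-scaled CPM (lower panel), both on log axes. Maltose replicate 3 stands at 2.11 TPM among the libraries of the other carbon sources but at 23.9 CPM near maltose replicate 2 (27.6 CPM), and Avicel replicate 1 is the lowest library on TPM at 0.23 and the highest of the 14 others on CPM at 3.8.

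The rule did not use the difference between maltose and glucose beyond the lower of their medians. That median, on TPM the maltose one in 19 of the 25, had to be high, which disfavours transcripts much lower on 1 sugar. Values over all transcripts are therefore printed beside those of the set as background only. No transcript of the set passed edgeR's quasi-likelihood test of maltose against glucose (Benjamini-Hochberg adjusted p under 0.05), where 0.00969% of all transcripts tested, a single one, did. At an unadjusted p under 0.05 there were 4 of 25, beside 1912 of all 10316. DESeq2 called 1, Locus346v1rpkm426.68, at a log2 fold change of 1.09 ± 0.31 (SE, higher on maltose, DESeq2 adjusted p = 0.0195). The set's fitted log2 fold changes ran from -0.80 to 1.27 with a median of 0.33, beside -0.46 over all transcripts, and with library size alone the set's median was -0.50. Their intervals (95%, from the SE, not adjusted for the number of tests) reached from -2.34 to 2.35. They lay wholly above 0 in 5 transcripts, wholly below in 0 and held 0 in 20. In some of those 20, differences of several-fold between the sugars could not be told from the spread. With library size alone, edgeR's unadjusted p was under 0.05 in 0 of the 25.

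The tests among the other 5 carbon sources rest on few counts in several transcripts, because a transcript could pass the filter on low counts through glucose and maltose alone. In 3 of the 25 each of the 6 cellobiose and Avicel libraries held under 10 expected counts, and with only these groups in the fit 20 of the 25 passed the filter for Avicel against cellobiose and 24 for each comparison with the grasses. Shares of all transcripts are therefore printed beside the counts below as background only. Levels on the 5 other carbon sources differed among themselves in 10 of the 25 transcripts by edgeR's quasi-likelihood F test, beside 44.6% of all transcripts tested. The smallest adjusted p-values of that edgeR test belonged to Locus387v1rpkm342.10 (9.36e-06), Locus416v1rpkm310.86 (0.000194), Locus595v1rpkm184.28 (0.000392), Locus10210v1rpkm1.06 (0.00117) and Locus2484v1rpkm20.77 (0.00186). The other 5 were Locus4551v3rpkm5.93, Locus918v1rpkm99.31, Locus4551v2rpkm6.61, Locus346v1rpkm426.68 and Locus1964v1rpkm31.66. The last 2 calls were lost under several alternatives. Locus346v1rpkm426.68 had an edgeR adjusted p of 0.032, which became 0.109 without Avicel replicate 2, 0.487 with DESeq2 size factors and 0.737 with library size alone (0.414 by DESeq2). Locus1964v1rpkm31.66 had 0.0455, which became 0.243 without cellobiose replicate 3. They lost the call in 5 and 11 of 20 fits that each left out 1 library. For Locus918v1rpkm99.31 the edgeR adjusted p was 0.00556 and became 0.275 without corn stover replicate 1, the library in which it was highest among the 14. By library size alone, 8 transcripts were called, and Locus387v1rpkm342.10, Locus416v1rpkm310.86 and Locus595v1rpkm184.28 were no longer among them (edgeR adjusted p = 0.101, 0.173 and 0.216).

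Avicel and the grasses differed most clearly in Locus387v1rpkm342.10. Its TMM-scaled CPM was 596 ± 45.0 on Avicel (SD, n = 3), against 131 ± 35.5 on reed canary grass (n = 3), 81.7 ± 14.3 on switchgrass (n = 3), 131 ± 27.8 on corn stover (n = 2) and 207 ± 43.0 on cellobiose (n = 3). On this scale no Avicel library overlapped any of the other 11. The mean of the 3 grasses was lower than Avicel by a log2 fold change of -2.41 ± 0.26 (SE, edgeR adjusted p = 5.39e-07), and Avicel was above cellobiose by 1.53 ± 0.34 (edgeR adjusted p = 0.00245). With library size alone the first difference was -1.06 ± 0.39 (edgeR adjusted p = 0.0204) and the second 0.14, which was no longer called.

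On Avicel the mean of Locus416v1rpkm310.86 was 115 ± 15.1 CPM, beside 17.2 ± 0.85 CPM for cellobiose (SD, n = 3 each). On reed canary grass, switchgrass and corn stover it stood at 21.5 ± 4.5 (n = 3), 16.7 ± 5.2 (n = 3) and 40.6 ± 34.0 CPM (n = 2). The Avicel libraries lay between 99.7 and 130 CPM, above all 11 others, of which corn stover replicate 1 was the highest at 64.7 CPM. The grasses were lower than Avicel by -2.24 ± 0.39 (log2, SE, edgeR adjusted p = 6.77e-05) and Avicel was above cellobiose by 2.75 ± 0.53 (edgeR adjusted p = 0.000922). Locus595v1rpkm184.28 showed differences of the same direction and similar size, -2.25 ± 0.40 (edgeR adjusted p = 9.68e-05) and 2.39 ± 0.54 (edgeR adjusted p = 0.00264), with Avicel libraries at 14.8, 42.1 and 37.5 CPM, the lowest of them under corn stover replicate 1 at 19.1 CPM. In both transcripts the sign was the same with library size alone, at -0.96 and -1.10 for grasses against Avicel and 1.39 and 1.15 for Avicel against cellobiose, but none of these 4 differences was then called. Locus10210v1rpkm1.06 stood at 3.8, 1.69 and 1.26 CPM on Avicel and at 0 to 0.994 CPM on the grasses, a log2 difference of -2.95 ± 0.53 (edgeR adjusted p = 0.000111). With library size alone it was -1.41 ± 0.57 and still called (edgeR adjusted p = 0.0327).

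Over the set, the grasses were lower than Avicel in 10 transcripts and higher in 1, Locus2267v1rpkm24.49, beside 21.2% and 33.1% of all transcripts tested, 54.4% in all. Besides those named above, the lower ones were Locus346v1rpkm426.68 (-0.96 ± 0.27, edgeR adjusted p = 0.00495), Locus312v1rpkm492.27, Locus1921v1rpkm32.73, Locus4217v2rpkm0.00_PRE, Locus4551v2rpkm6.61 and Locus4551v3rpkm5.93. Locus2267v1rpkm24.49 was higher on the grasses by 1.23 ± 0.46 (edgeR adjusted p = 0.0269), and by 2.58 ± 0.56 with library size alone. The balance of directions turned with the scaling: DESeq2 called 5 higher and 6 lower, edgeR with DESeq2 size factors 4 and 5, and edgeR with library size alone 6 and 2. Of the 11 called with TMM, 6 kept their sign and 3 both sign and call (Locus387v1rpkm342.10, Locus10210v1rpkm1.06 and Locus2267v1rpkm24.49), while Locus346v1rpkm426.68, Locus312v1rpkm492.27, Locus1921v1rpkm32.73, Locus4217v2rpkm0.00_PRE and Locus4551v3rpkm5.93 lay above 0. Library size alone also moved the median of all transcripts tested in this comparison, by 1.3 on the log2 scale.

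Avicel was above cellobiose in 4 of the 25 and below it in none, beside 11.3% and 23.4% of all transcripts tested, 34.7% in all. The fourth, after the 3 already described, was Locus4217v2rpkm0.00_PRE (1.17 ± 0.42, edgeR adjusted p = 0.0346), which fell to 0.71 and lost its call without Avicel replicate 1, and also lost it without cellobiose replicate 1 or 2. With library size alone, which moved the median of all transcripts by -1.4, none was called higher and 5 were called lower (DESeq2 called 3 higher and 1, Locus1964v1rpkm31.66, lower), and Locus4217v2rpkm0.00_PRE changed sign to -0.46. Avicel replicate 1 was the lowest of the Avicel libraries in 22 of the 25 on TPM and in 10 on TMM-scaled CPM. Without both maltose replicate 3 and Avicel replicate 1, an alternative chosen after seeing the data, the TMM counts were 4 higher for Avicel against cellobiose and 9 lower for grasses against Avicel.

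**Figure D5:**
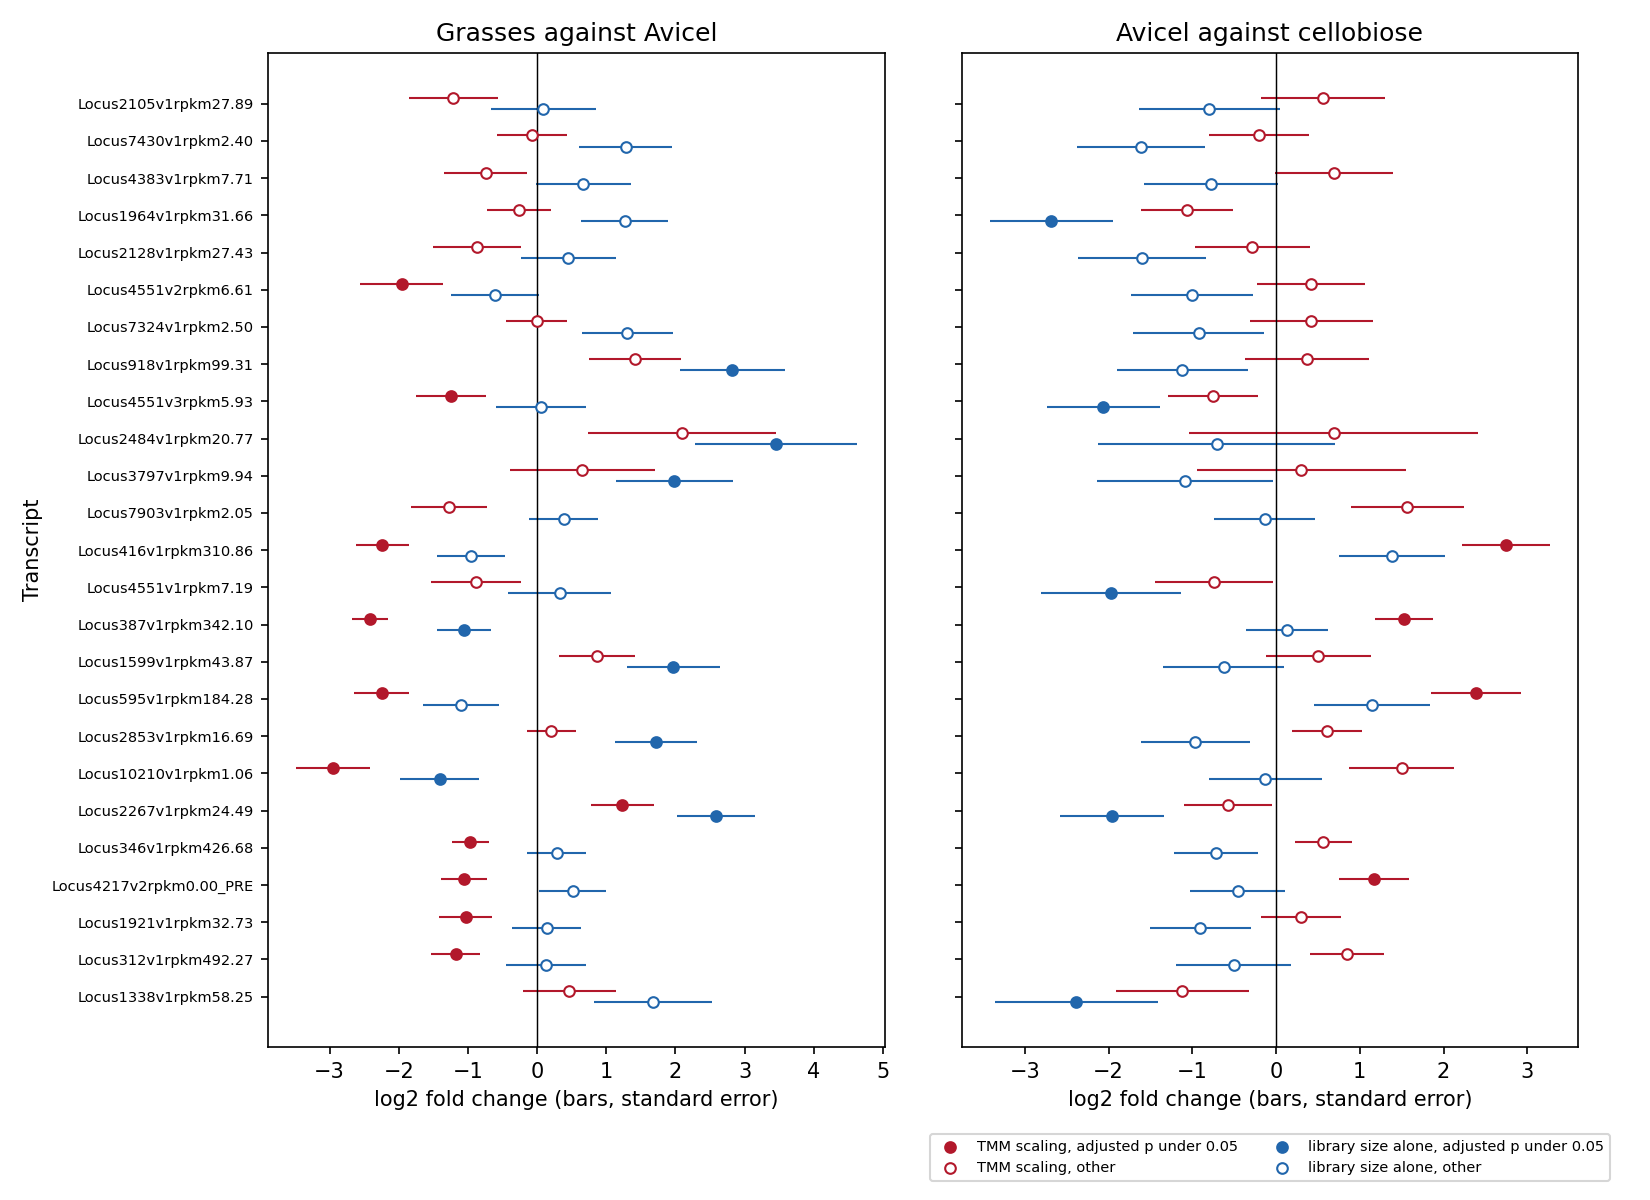
Log2 fold change (points) with its standard error (bars) of the 25 transcripts for grasses against Avicel (left) and Avicel against cellobiose (right), with TMM scaling in red and with library size alone in blue, filled where the edgeR adjusted p was under 0.05. Signs differ between the scalings in 13 transcripts on the left and 15 on the right, and Locus387v1rpkm342.10 and Locus10210v1rpkm1.06 are filled and below 0 on the left under both.

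Grasses and cellobiose differed in 2 transcripts, both lower on the grasses, beside 3.38% of all transcripts tested called lower, 5.3% called higher and 8.69% in all. Locus4551v3rpkm5.93 stood at 0.509, 2.07 and 1.18 CPM on cellobiose and between 0.0644 and 0.831 CPM in the 8 grass libraries, so that the groups overlapped through cellobiose replicate 1. Its log2 fold change was -2.0 ± 0.41 (SE, edgeR adjusted p = 0.00434). Without cellobiose replicate 2 it was -1.46 and no longer called. Locus387v1rpkm342.10 was lower by -0.88 ± 0.27 (edgeR adjusted p = 0.0451), close to the threshold, and lost its call without any 1 of 10 single libraries of cellobiose, corn stover, switchgrass or reed canary grass (replicates 1 and 3). The count of 2 became 4 without Avicel replicate 1, glucose replicate 3 or maltose replicate 3. It became 1 without cellobiose replicate 2 or 3, corn stover replicate 2, reed canary grass replicate 1 or any switchgrass library, and DESeq2 called 7, of which 4 were higher on the grasses. In this comparison all 25 transcripts kept their sign with library size alone.

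Of the 23 loci, 20 had a single version in the table and 3 had more. Locus2105v2rpkm9.48, the other version of the top-scoring locus, stood at medians of 8.57 TPM on glucose and 3.32 TPM on maltose against an L of 0.75 TPM, and missed the set by its level. At Locus4217 the versions differed on both glucose and maltose. Locus4217v1rpkm8.34 had medians of 6.22 TPM on glucose and 1.53 TPM on maltose against an L of 4.36 TPM. Locus4217v2rpkm0.00_PRE had 24.35 and 13.73 TPM against 5.35 TPM. The former held more expected counts over all libraries, 5210 against 1822. With counts summed per locus, the log2 fold changes at Locus4217 shrank to 0.13 for Avicel against cellobiose and -0.09 for grasses against Avicel, and neither was called.

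Most transcripts of the set were shorter than the median tested transcript. The expected count divided by TPM gives an effective length on a relative scale, and its median was 0.606 in the set and 1.21 in the 9807 tested transcripts with enough counts to estimate it, a ratio of 0.503. In the set 19 of 25 were shorter than the median of those transcripts. The shortest was Locus312v1rpkm492.27 at 0.0799 times that median, followed by Locus2484v1rpkm20.77 at 0.103 times. Longer than it were Locus1964v1rpkm31.66 at 4.23 times, Locus1921v1rpkm32.73 at 2.52 times, Locus1599v1rpkm43.87 at 2.33 times and Locus7430v1rpkm2.40 at 2.10 times. Locus918v1rpkm99.31 at 1.56 times and Locus387v1rpkm342.10 at 1.48 times were also longer. Length enters TPM, on which the rule set its level minimum, so no test was made. The 9807 transcripts did not have to reach that minimum.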

How the data were processed

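The authors deposited a table of expected counts and a table of TPM per transcript and library. Both come from RSEM per the submitters' processing notes. The sources used here give neither the aligner nor the reference. The deposited TPM values chose the transcripts. Members and lists were chosen with earlier results of these data known.

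Deposited expected counts (10.4% not whole, tolerance 1e-09) were rounded. Transcripts were kept by filterByExpr (minimum count 10, minimum total 15), which left 10316. edgeR 4.0.16 in R 4.3.3 scaled the 20 libraries by TMM and fitted 1 mean per carbon source in a robust quasi-likelihood model. P-values were adjusted by Benjamini-Hochberg over all transcripts, with a threshold of 0.05. The fit was run on simulated libraries that shared a common transcript profile apart from planted changes. That simulation cannot speak to the choice of scaling. The grasses are the mean of 3 group coefficients. The SE of an edgeR log2 fold change is its absolute value divided by the square root of the test's F value. CPM denotes counts per 1000000 after TMM scaling.

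The labels do not say whether replicates were separate cultures, so p-values measure the spread between libraries, which may be technical. Relative lengths used libraries with at least 20 expected counts, put on 1 scale by the 816 transcripts that had as many in every library. Named transcripts were the 10 highest scores, the 5 highest H, up to 5 called per test, those beside the thresholds and loci with several versions. Others were named after their values were seen. Alternatives were DESeq2 1.42.0, its size factors, library size alone, no filter, a replicate block, only the groups compared, counts per locus, each library left out, and other settings of the rule. Values from the other fungus of the series were not used.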

Additional observations from a re-analysis of the deposited data

How the results depend on the processing

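The number passing the rule moved most with the scaling, and the members kept were fewest without maltose replicate 1 or 2. With TMM-scaled CPM in place of TPM the rule gave 128 transcripts, 24 of them among the 25, and with TPM divided by the TMM factors, added after seeing the data, 98 with all 25. Requiring an H of at least 20 TPM left 13. Leaving out each library in turn gave 13 (without maltose replicate 1) to 50 (without maltose replicate 3). Of the 25, 13 were kept without maltose replicate 1 and 13 without maltose replicate 2, where 33 passed. Means in place of medians gave 34 with 20 shared, and H of at least 1 TPM gave 36.

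Members called for grasses against cellobiose were 7 with DESeq2, 7 with only the groups compared, 1 with library size alone and 5 without maltose replicate 3 and Avicel replicate 1. Leaving out each library gave 1 to 4. DESeq2 called 1 member for maltose against glucose, and the test among the 5 other carbon sources called 17 with only the groups compared. Under leave-one-out these counts were 8 to 14 among the 5, 3 to 5 for Avicel against cellobiose, 8 to 12 for grasses against Avicel and 0 throughout for maltose against glucose. With library size alone the sign reversed for Locus4217v2rpkm0.00_PRE in Avicel against cellobiose (-0.46), and in grasses against Avicel for Locus4551v3rpkm5.93 (0.055), Locus346v1rpkm426.68 (0.28), Locus4217v2rpkm0.00_PRE (0.51) and Locus312v1rpkm492.27 (0.13), and for Locus1921v1rpkm32.73 (0.14), which is not among the transcripts the rule named. The cause was not tested beyond the shift of all transcripts given above. Of the fold changes of called, named members under all alternatives, 369 kept direction and call, 46 kept direction only and 5 reversed. Of their F test values, which have no direction, 255 kept the call and 25 lost it.

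Same-numbered libraries correlated between -0.26 and 0.38 in their deviations, over 0.1 in 17 of 57 pairs. No value expected under pairing was set, so these correlations cannot decide whether the numbers pair the libraries. No label says that they do. The fit with the replicate block called 1 member for grasses against cellobiose, 8 among the 5 and 10 for grasses against Avicel. Low transcripts are limited by depth in maltose replicate 3, where 3 counts equal 8.96 CPM.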
